A study of Mus musculus with 10 samples.

Results

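The genes described here are 10 secreted factors of the transforming growth factor beta (TGF-beta) superfamily and its activin branch: the activin subunit genes Inhba and Inhbb, the activin antagonists Fst and Fstl3, the TGF-beta isoform genes Tgfb1, Tgfb2 and Tgfb3, the bone morphogenetic protein genes Bmp4 and Bmp7, and Gdf15. They were picked by name from the 26063 genes of the table, and all 10 were found and passed the filter on low counts, as did 14915 genes in all. The choice was made with the 16IC over EIC comparison of these tumours already known, so the members' genotype differences are given below as a description. Calls that tests over all genes made for members are listed but not read as evidence.

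RNA was sequenced from mammary tumours, all from FVB/N females, with 5 of genotype EIC/WT (called EIC) and 5 of genotype 16IC/WT (called 16IC). Doxycycline (2 mg/ml) was given to the mice of both groups, and tumours were harvested and frozen at end point. The labels do not spell out EIC or 16IC, and they give neither the promoter that drives a transgene nor the age of the animals. The series title names a HER2 splice variant and ENPP1. The labels give every tumour a different animal number, and tumours are numbered 1 to 5 within a genotype here as names only. Levels are TMM-normalised read counts relative to library size (CPM), differences are log2 of 16IC over EIC from edgeR with their standard error (SE), and positions are on GRCm38. Values with ± are means with their SD over 5 tumours unless another n is given, and higher or lower in a count of genes means the sign of the log2 difference, whether or not a test was passed.

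Activins are dimers of the beta subunits encoded by Inhba and Inhbb, and inhibins pair a beta subunit with the alpha subunit of Inha and oppose activin. Activins, TGF-betas and BMPs are made as precursors, cut by proprotein convertases, and bind pairs of type I and type II receptor kinases. Activins and TGF-betas then act through SMAD2 and SMAD3, and BMPs through SMAD1, SMAD5 and SMAD9. Follistatin, the product of Fst, and the related product of Fstl3 bind activin and keep it from its receptors. In the mammary gland this family is known for restraining epithelial growth, for shaping ducts and stroma, and, in tumours, for effects on invasion and immune cells. GDF15 is a distant relative that cells secrete under stress.

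The upstream sequences of 3 ligand genes are shown because Inhba and Tgfb2 had the steadier of the lower levels in 16IC, while Inhbb, the sister gene of Inhba, did not share that difference. Each is the 250 bases before the annotated start, 5′ to 3′ on the gene's strand, from RefSeq (GRCm38.p6), with matches to a searched motif in capitals.
Inhba, chr13:16011601-16011850, plus strand: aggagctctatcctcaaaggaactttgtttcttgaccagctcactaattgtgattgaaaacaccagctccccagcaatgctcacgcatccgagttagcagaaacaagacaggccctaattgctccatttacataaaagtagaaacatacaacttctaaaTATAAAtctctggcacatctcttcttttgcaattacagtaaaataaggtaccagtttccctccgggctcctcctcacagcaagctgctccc
Tgfb2, chr1:186705990-186706239, minus strand: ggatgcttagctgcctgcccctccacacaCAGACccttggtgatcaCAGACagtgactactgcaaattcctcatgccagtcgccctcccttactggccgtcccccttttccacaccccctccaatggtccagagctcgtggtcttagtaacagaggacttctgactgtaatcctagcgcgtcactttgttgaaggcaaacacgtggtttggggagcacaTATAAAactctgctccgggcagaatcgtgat
Inhbb, chr1:119422249-119422498, minus strand: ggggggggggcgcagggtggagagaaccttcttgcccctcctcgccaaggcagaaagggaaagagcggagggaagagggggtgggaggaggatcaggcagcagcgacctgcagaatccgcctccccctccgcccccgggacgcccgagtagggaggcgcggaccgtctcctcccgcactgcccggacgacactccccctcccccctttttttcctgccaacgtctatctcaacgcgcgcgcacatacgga
The motifs searched were TATAAA on the gene's strand, and TGANTCA (AP-1), TGACGTCA (CRE) and CAGAC (SMAD) on both strands, with no letters shared between matches shown. TATAAA stood 91 bases before the start of Inhba and 31 bases before that of Tgfb2, and 7.59% of the 32851 promoter windows of that length held it. Tgfb2 also held CAGAC at 221 and 204 bases before the start, a motif found in 42.2% of windows. Inhbb held none of the 4 motifs, and its window was 68.0% G or C against 43.2% for Inhba. TGANTCA (6.75% of windows) and TGACGTCA (1.55%) were in none of these 3 windows. The table held such a window for 7 of the 10 members. Of the other 4, Fstl3, Bmp4 and Gdf15, whose log2 differences were also negative, and Tgfb1 held no TATAAA, and Fstl3 and Gdf15 held CAGAC.

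Inhba (inhibin beta-A, ENSMUSG00000041324, chr13:16011851-16031621, plus strand) was low in 16IC. Its level was 20.8, 9.62, 15.3, 17.4 and 8.97 CPM in EIC 1 to 5 and 4.39, 4.94, 2.43, 2.61 and 3.22 CPM in 16IC 1 to 5. Every 16IC tumour lay below every EIC tumour, with 4.94 CPM in the highest 16IC tumour against 8.97 CPM in the lowest EIC tumour. The log2 difference was -2.03 (SE 0.32), 4.10-fold lower in 16IC, and it ran from -2.19 to -1.87 when any 1 tumour was left out. Inhba was the 1 of 10 members without overlap between the groups. Across all genes tested 1.19% were lower in 16IC without overlap, and 2.58% did not overlap in either direction. Annotated genes on the opposite strand cover 58.5% and 31.6% of the length of Inhba, and their own levels were at most 0.290 CPM in any tumour.

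Inhbb (inhibin beta-B, ENSMUSG00000037035, chr1:119415465-119422248, minus strand) differed from Inhba in both level and pattern. Its level was 284, 295, 247, 268 and 344 CPM in EIC 1 to 5 and 89.3, 554, 191, 58.9 and 726 CPM in 16IC 1 to 5. The EIC tumours lay within 1.39-fold of each other, whereas the 16IC tumours spanned 12.3-fold, with 16IC 2 and 16IC 5 above every EIC tumour and the others below every EIC tumour. The log2 difference of 0.17 (SE 0.60) averages over these, and it turned to -0.37 without 16IC 5, to -0.11 without 16IC 2 and to -0.52 with voom and quality weights. 16IC 2 and 16IC 5 also had the highest adipocyte marker sums of their genotype, 236 and 131.7 CPM against 11.0 to 39.9 CPM. The same tumours led their genotype for fibroblast (3316 and 3271 CPM against 389 to 2328 CPM), basal (99.7 and 199 CPM against 22.5 to 35.7 CPM), macrophage (397 and 498 CPM against 216 to 282 CPM) and neutrophil markers (17.2 and 24.0 CPM against 3.53 to 8.36 CPM). Endothelial sums had another order, with 199.1 CPM in 16IC 1, 173.9 CPM in 16IC 2 and 198.8 CPM in 16IC 5. Among EIC tumours, where Inhbb stayed at 247 to 344 CPM, adipocyte sums ran from 23.2 to 238 CPM. Fibroblast sums there ran from 1714 to 6602 CPM. The part of these cell types in the Inhbb levels was not tested. In bulk tumours fewer cells of a type and less RNA per cell cannot be told apart.

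**Figure D1:**
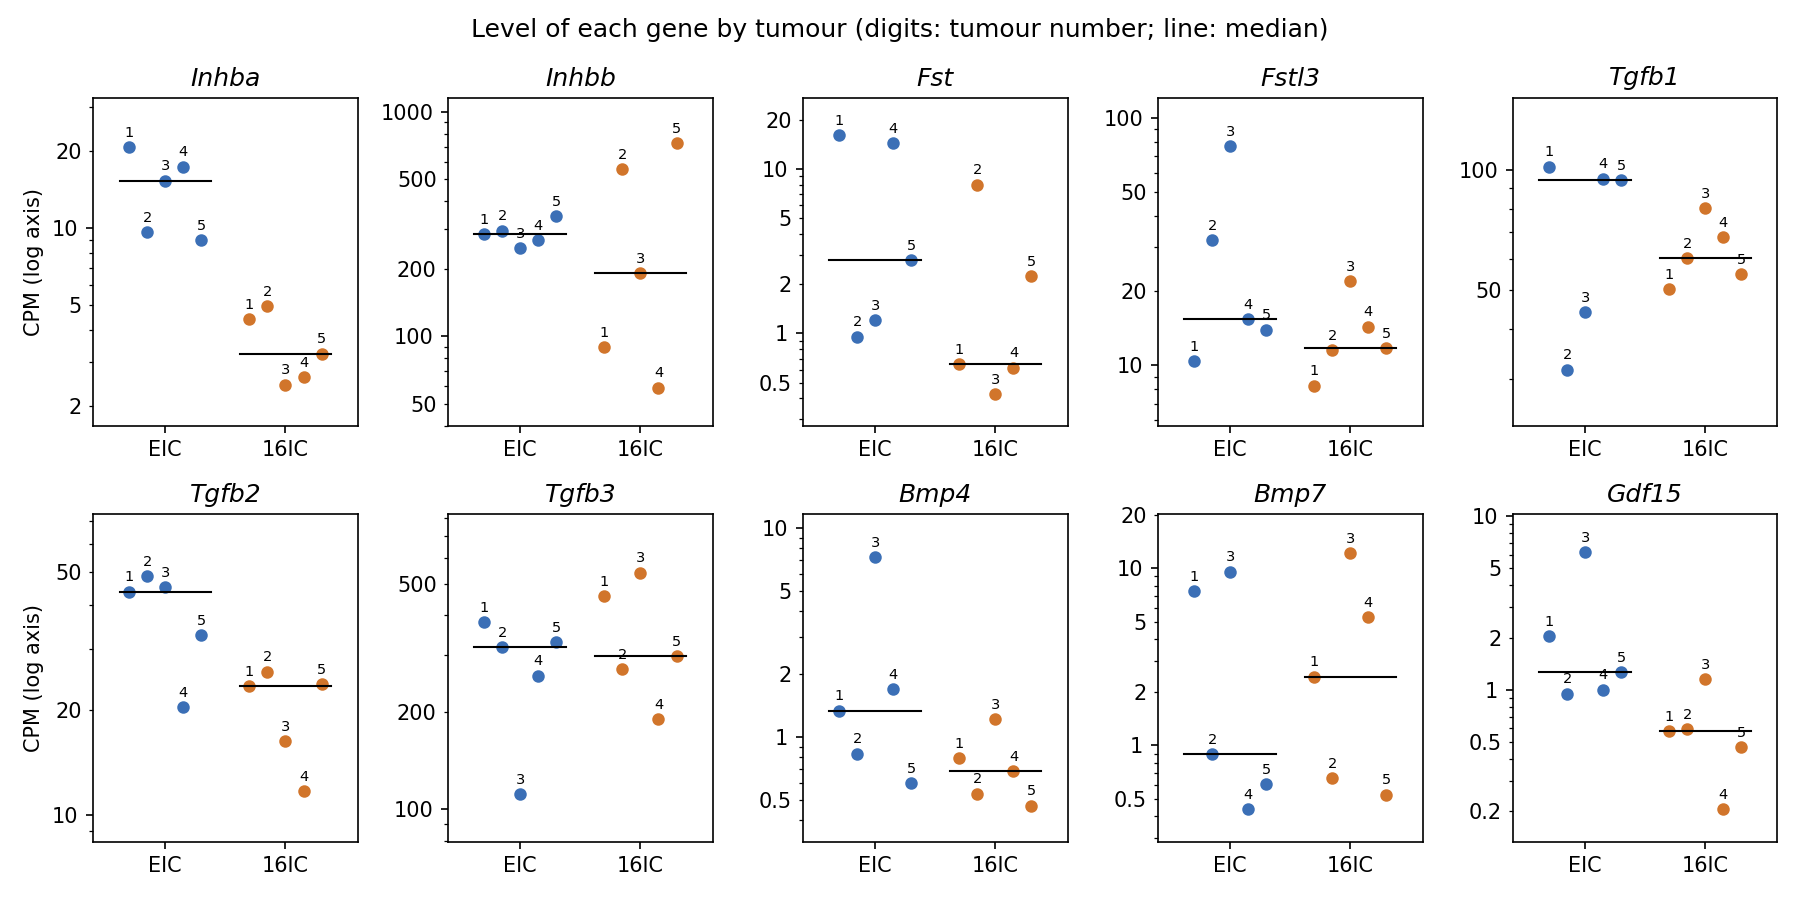
CPM of each of the 10 genes (log axis, its own range in each panel) in the 5 EIC (blue) and 5 16IC (orange) tumours, numbered, with the group median as a line. Inhba is the panel where the groups do not overlap, Inhbb is even in EIC and spread over 12.3-fold in 16IC, and EIC 3 is the highest tumour for Fstl3, Bmp4 and Gdf15.

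The antagonists were uneven within both genotypes. Fst (follistatin, ENSMUSG00000021765, chr13:114452290-114458951, minus strand) stood at 16.1, 0.950, 1.20, 14.4 and 2.77 CPM in EIC 1 to 5 and 0.648, 8.03, 0.426, 0.617 and 2.23 CPM in 16IC 1 to 5. It was high in EIC 1, EIC 4 and 16IC 2 and at or under 2.77 CPM in the other 7 tumours, so the groups overlapped. The log2 difference of -1.56 (SE 1.03) was -1.01 without EIC 1 and -2.84 without 16IC 2. EIC 1, EIC 4 and 16IC 2 were also the tumours with the highest adipocyte marker sums (187, 238 and 236 CPM, against 11.0 to 135 CPM in the others) and the highest fibroblast sums (6602, 3959 and 3316 CPM, against at most 3271 CPM). Basal (637.7 and 289.7 CPM) and neutrophil sums (103 and 93.0 CPM) were highest in EIC 1 and EIC 4. Krt14 gave 466 CPM of the basal sum in EIC 1. The skin keratinocyte markers summed to 22.0 CPM in EIC 1, against 3.36 to 6.24 CPM in the other tumours. The part of these cell types in the Fst level was not tested.

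Fstl3 (follistatin-like 3, ENSMUSG00000020325, chr10:79777272-79782630, plus strand) followed another order. Its level was 10.4, 32.0, 76.9, 15.4 and 13.9 CPM in EIC 1 to 5 and 8.28, 11.5, 21.8, 14.3 and 11.7 CPM in 16IC 1 to 5. The groups overlapped, EIC 3 stood highest, and EIC 1, which led for Fst, was lower than every 16IC tumour but 16IC 1. The log2 difference of -1.13 (SE 0.54) was -0.41 without EIC 3.

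Compared per gene length, antagonist transcripts outnumbered those of the subunit gene Inhba alone in every tumour. The authors' FPKM values of Fst and Fstl3 summed to 13.3 ± 10.04 in EIC and 5.83 ± 1.82 in 16IC (SD, n = 5 each), against 2.20 ± 0.795 and 0.533 ± 0.169 FPKM of Inhba. The ratio of that sum to Inhba was 2.38 to 13.2 in EIC and 5.13 to 23.7 in 16IC, so it overlapped between the groups. Inhbb made up most of the activin subunit transcripts, 96.7% ± 1.31 of the summed FPKM of both subunits in EIC and 98.4% ± 1.36 in 16IC. The sum of both subunits was therefore close to the Inhbb level, 67.9 ± 7.99 FPKM in EIC and 74.2 ± 68.6 FPKM in 16IC. This subunit sum exceeded the sum of Fst and Fstl3 in every tumour.

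Among the TGF-beta isoforms, Tgfb2 was the one with lower levels in most 16IC tumours. Tgfb2 (ENSMUSG00000039239, chr1:186622792-186705989, minus strand) stood at 43.8, 48.5, 45.1, 20.4 and 32.8 CPM in EIC 1 to 5 and 23.5, 25.8, 16.3, 11.7 and 23.7 CPM in 16IC 1 to 5. EIC 4 lay among the 16IC tumours, and the other 4 EIC tumours were above all of them. The log2 difference was -0.92 (SE 0.28), and -1.08 without EIC 4.

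Tgfb1 (ENSMUSG00000002603, chr7:25687002-25705077, plus strand), the isoform best known from immune and stromal cells, placed EIC tumours on either side of the 16IC range. Its level was 102, 31.7, 44.2, 95.1 and 94.4 CPM in EIC 1 to 5 and 50.4, 60.1, 80.2, 68.0 and 54.9 CPM in 16IC 1 to 5. EIC 2 and EIC 3 were below every 16IC tumour, and the other EIC tumours were above all of them. The log2 difference was -0.23 (SE 0.32). The macrophage marker sum was also lowest among EIC tumours in EIC 2 and EIC 3 (281.5 and 292 CPM, against 457 to 530.2 CPM in the other EIC tumours), whereas among 16IC tumours 16IC 3 had the lowest macrophage sum (216 CPM) and the highest Tgfb1 level. Its part in the Tgfb1 level was not tested.

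Tgfb3 (ENSMUSG00000021253, chr12:86056745-86079041, minus strand) was the most abundant isoform. Its level was 380.2, 317, 112, 259.5 and 329.8 CPM in EIC 1 to 5 and 457, 272, 541, 190.2 and 297 CPM in 16IC 1 to 5. EIC 3 was the lowest tumour and 16IC 3 the highest, and the groups overlapped over most of their range, with a log2 difference of 0.33 (SE 0.36). Ttll5 on the opposite strand covers 23.1% of the length of Tgfb3 and averaged 34.6 CPM over EIC and 33.7 CPM over 16IC tumours. No source used here says whether reads were counted by strand, so reads from the shared stretch cannot be assigned.

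By FPKM, Tgfb3 took 78.1% ± 7.26 of the summed isoform transcripts in EIC and 85.4% ± 4.96 in 16IC (SD, n = 5 each). Tgfb2 took 7.41% ± 4.89 and 3.14% ± 1.18, and Tgfb1 14.5% ± 5.18 and 11.5% ± 4.60. The smallest Tgfb3 share, 66.6%, and the largest Tgfb2 share, 15.7%, were both in EIC 3. In raw counts, which do not correct for length, the Tgfb3 share over all 10 tumours was 74.5% in place of 81.8%.

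**Figure D2:**
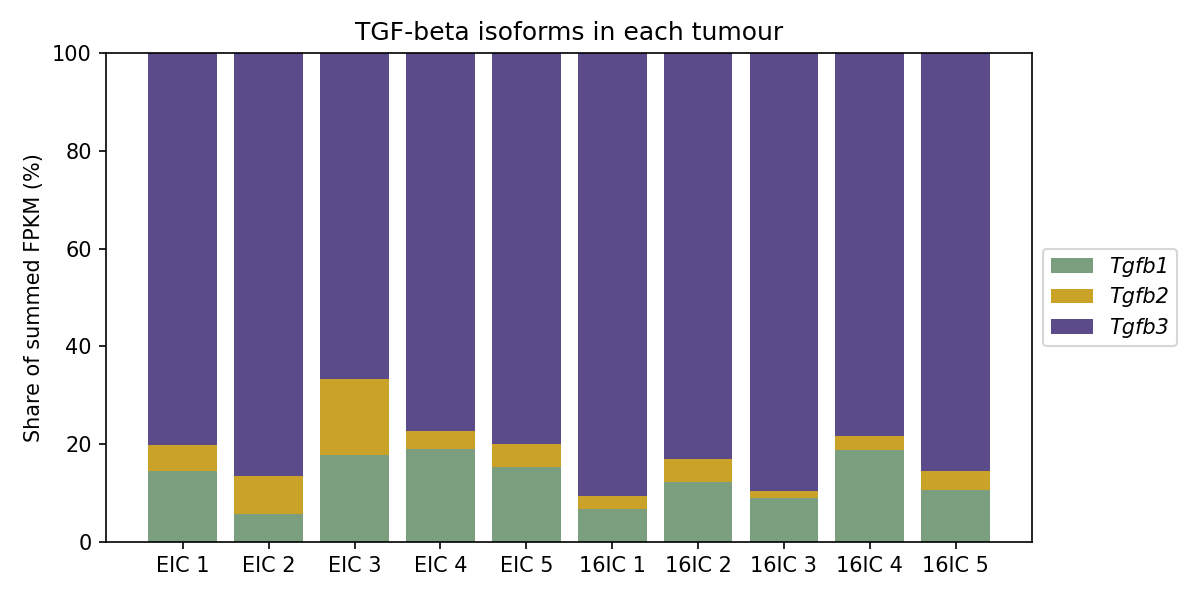
Share (%) of the summed FPKM of Tgfb1, Tgfb2 and Tgfb3 held by each isoform, 1 bar for each tumour. Tgfb3 is the largest part of every bar, from 66.6% in EIC 3 to 90.6% in 16IC 1.

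Bmp4, Bmp7 and Gdf15 were expressed at low levels. Bmp4 (ENSMUSG00000021835, chr14:46383520-46390669, minus strand), a ligand of the SMAD1/5 branch, stood at 1.33, 0.832, 7.25, 1.69 and 0.602 CPM in EIC 1 to 5 and 0.792, 0.535, 1.22, 0.686 and 0.469 CPM in 16IC 1 to 5. EIC 3 alone was far above the rest, the groups overlapped, and the log2 difference of -1.65 (SE 0.68) became -0.59 without EIC 3. Raw counts of Bmp4 ran from 8 to 121, so its lower values also carry counting error.

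Bmp7 (ENSMUSG00000008999, chr2:172868012-172940321, minus strand), of the same branch, stood at 7.42, 0.891, 9.59, 0.438 and 0.602 CPM in EIC 1 to 5 and 2.45, 0.654, 12.2, 5.28 and 0.528 CPM in 16IC 1 to 5. Tumours fell high or low in both genotypes, with EIC 1, EIC 3, 16IC 3 and 16IC 4 above 5 CPM and EIC 2, EIC 4, EIC 5, 16IC 2 and 16IC 5 under 1 CPM. The log2 difference of 0.16 (SE 1.06) went from -0.77 without 16IC 3 to 0.85 without EIC 3, and was also negative without EIC 2, EIC 4 or EIC 5 (-0.13 to -0.09).

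Gdf15 (ENSMUSG00000038508, chr8:70629393-70632456, minus strand) stood at 2.03, 0.950, 6.17, 1.0 and 1.26 CPM in EIC 1 to 5 and 0.576, 0.595, 1.16, 0.206 and 0.469 CPM in 16IC 1 to 5. EIC 3 was highest, and 16IC 3 was the only 16IC tumour inside the EIC range. The log2 difference was -1.91 (SE 0.64), and -1.12 without EIC 3. Counts of Gdf15 ran from 3 to 103. Gfral, the receptor of GDF15, known from the hindbrain, had at most 0.180 CPM in any tumour.

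Over the 10 members, 7 were lower and 3 higher in 16IC, with a median log2 difference of -1.02 where all genes tested had -0.02 and 52.3% of them were lower. Without EIC 3 the members' median was -0.50. At an adjusted p under 0.05 edgeR called 0 of the 10 members and 0.0% of all genes. At an unadjusted p under 0.05, it had 4 members, all lower, and 13.1% of all genes. DESeq2 called 1 member, Inhba, and 2.11% of all genes (1.27% as lower, 0.843% as higher), and it kept that call with any 1 tumour left out. It also called Fst without 16IC 2, Tgfb2 without EIC 4 and Gdf15 without EIC 2. Nothing is read from these counts and calls, with or without a tumour left out, since the same comparison led to the choice of the genes. The log2 fold change for Inhba in the authors' deposited table is -2.04.

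**Figure D3:**
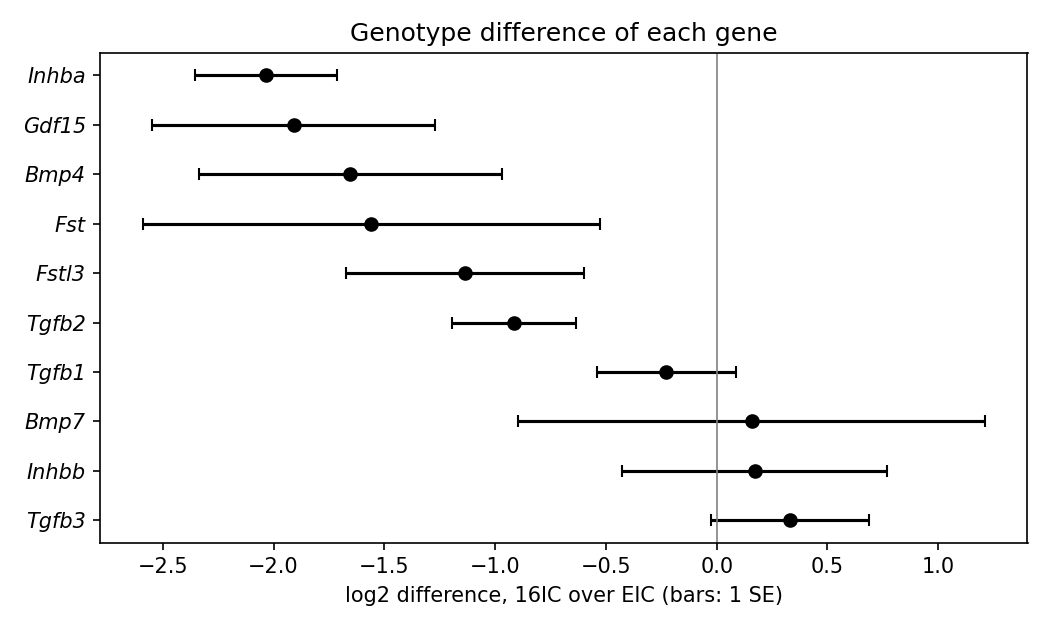
Log2 difference of 16IC over EIC for each gene (points) with 1 SE (bars), from the fit over 14915 genes. Inhba lies lowest at -2.03, while the bars of Tgfb1, Bmp7, Inhbb and Tgfb3 reach or cross 0.

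Levels can be compared between genes per length. Over the 10 tumours the authors' FPKM was 90.4 ± 35.2 for Tgfb3, 69.7 ± 46.3 for Inhbb, 13.1 ± 4.64 for Tgfb1, 8.55 ± 8.14 for Fstl3, 4.90 ± 2.17 for Tgfb2 and 1.37 ± 1.03 for Inhba (SD, n = 10). Fst (1.01 ± 1.28), Bmp7 (0.964 ± 1.04), Gdf15 (0.755 ± 0.910) and Bmp4 (0.664 ± 0.880) followed. The order of the means of these lower genes differed by genotype. In 16IC Bmp7 (1.01 ± 1.14) had a higher mean than Inhba (0.533) and Fst (0.502), and in EIC Bmp7 had the lowest mean (0.922). The 16IC mean of Bmp7 rested on 16IC 3 (2.87 FPKM) and 16IC 4 (1.27 FPKM). In the other 16IC tumours Bmp7 was below Inhba. The steps from Inhbb to Tgfb1 and from Tgfb2 to Inhba held in 10 of 10 tumours. Tgfb3 was above Inhbb in 7 tumours, Tgfb1 above Fstl3 in 8 and Fstl3 above Tgfb2 in 8. From Inhba downward neighbours in this order changed places between tumours (higher in 4 to 7 of 10).

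**Figure D4:**
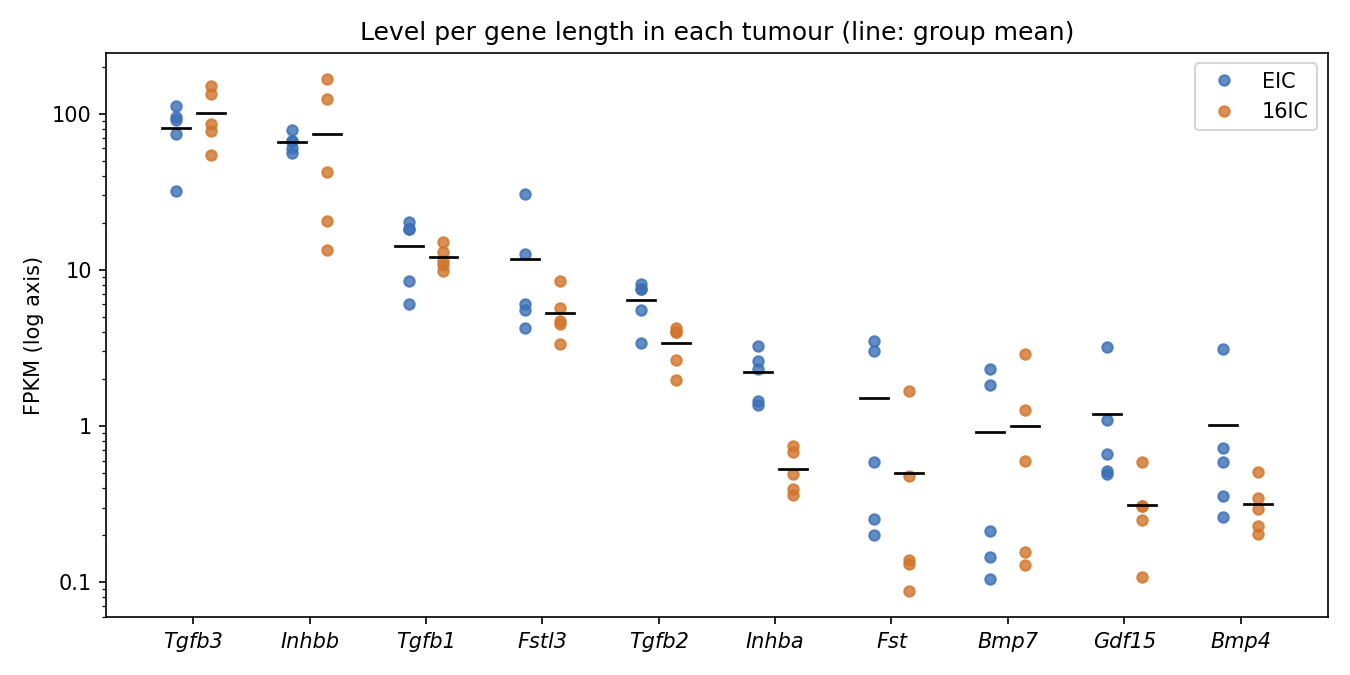
FPKM (log axis) of each gene in the 5 EIC (blue) and 5 16IC (orange) tumours, ordered by the mean over all tumours, with group means as lines. Tgfb3 and Inhbb lead, and Inhba is the gene whose groups form separate ranges (1.36 to 3.24 FPKM in EIC, 0.359 to 0.740 FPKM in 16IC).

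Tumours with more Inhba were compared with their levels of the other members within genotypes. Because Inhba splits the tumours by genotype, log2 CPM was centred on each group's mean for these relations (n = 10). A pooled r is given only in the next paragraph, where it ranks genes by likeness to Inhba. Fst had the closest relation, with a Pearson r of 0.70 (exact permutation p = 0.0490 within genotypes, adjusted over 9 relations 0.441) and a Spearman rho of 0.80 (exact permutation p = 0.0192, adjusted 0.173). The r was 0.70 again without EIC 1 and EIC 5, the tumours farthest from the median. It did not pass adjustment, and without 16IC 2 or EIC 1 Fst no longer had the smallest p. The other 8 members had an r from -0.32 (Fstl3) to 0.27 (Bmp4), with adjusted exact permutation p for r of at least 0.908.

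The genes whose levels were most like those of Inhba over the 10 tumours, by Pearson r of log2 CPM among 12851 genes, were Prep (0.95), Actg2 (0.95), Hmga1 (0.95), Plekhb2 (0.91) and Mapk1ip1l (0.91). Prep encodes a prolyl endopeptidase, Actg2 a smooth muscle actin and Hmga1 a chromatin protein. All 5 were lower in every 16IC tumour than in every EIC tumour, so r holds the split between genotypes along with the rest. Hmga1 had 11.5 ± 3.53 CPM over EIC tumours against 5.53 ± 0.848 CPM over 16IC tumours, and Prep 74.7 ± 6.70 and 54.1 ± 6.61 CPM. Of the other members, Tgfb2 (r = 0.72) ranked 458 and Fst (0.65) ranked 952 by this pooled measure. Centred within genotypes, their r with Inhba was 0.25 and 0.70.

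Marker sums of several cell types also differed in their ranges between the genotypes. Epcam and Krt18, epithelial genes that a mammary tumour should express, had 1227 to 2085 and 557 to 1599 CPM over the 10 tumours. Krt19 of the same list was uneven, with 2.79 CPM in EIC 2 and 3.53, 3.04 and 0 CPM in 16IC 1, 3 and 4. The other tumours, among them 16IC 2 and 16IC 5, the tumours highest for Inhbb, had 233 to 446 CPM of Krt19. The 8 epithelial markers summed to 7917 to 20511 CPM in EIC and 20658 to 33534 CPM in 16IC, with 4 higher and 4 lower. That separation came from the milk gene Csn3 (means 9505 and 19764 CPM), and without it the sums were 3810 to 6215 CPM in EIC and 3959 to 5409 CPM in 16IC, which overlapped. The 8 basal and myoepithelial markers summed to 44.3 to 637.7 CPM in EIC and 22.5 to 199 CPM in 16IC, with 7 of 8 lower. The 8 fibroblast markers summed to 1714 to 6602 CPM and 389 to 3316 CPM, with 7 of 8 lower, and neutrophil markers to 14.6 to 103 CPM and 3.53 to 24.0 CPM, with all 6 tested lower. Of the 8 macrophage markers, 8 were lower (281.5 to 530.2 CPM and 216 to 498 CPM). The 6 platelet markers summed to 10.5 to 20.4 CPM in EIC and 4.83 to 9.28 CPM in 16IC, without overlap. Only 2 of them could be tested, and these were lower. The endothelial, T cell, adipocyte and skin keratinocyte sums overlapped between the genotypes. No marker was at 0 in every tumour, and the part of these cell types in the members' levels was not tested.

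Beyond the members, 8 lists of pathway genes held 97 genes that could be tested, and 24 were higher and 73 lower in 16IC, with a median log2 difference of -0.34, beside -0.02 and 52.3% lower over all genes tested. edgeR called 0 of the 97 (0.0% of all genes), with 1 higher and 11 lower at an unadjusted p under 0.05, against 13.1% of all genes. DESeq2, which gave an adjusted p to 105 pathway genes, called 3, all lower: Ctgf, Angptl4 and Pcsk6. Over all genes it called 2.11%, with 1.27% as lower. Each of the 3 was still called by DESeq2 whichever single tumour was dropped. The number of pathway genes called by DESeq2 was 9 without EIC 2 and 3 to 5 without any other single tumour.

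Of the genes that SMAD2 and SMAD3 are known to induce, 15 of 16 tested were lower in 16IC and 1, Ltbp2, was higher, with a median of -0.38. With 1 tumour left out or another scaling, filter or voom, 13 to 15 were lower. Of the fibroblast markers 7 of 8, and of the basal and myoepithelial markers 7 of 8, were also lower in 16IC, and their part in the levels of these targets was not tested. Ctgf, which encodes a matrix-associated growth factor partner also called CCN2, had 166, 89.6, 109.5, 297 and 133 CPM in EIC 1 to 5 and 30.1, 64.7, 27.7, 46.5 and 56.0 CPM in 16IC 1 to 5. Every 16IC tumour was below every EIC tumour (log2 difference -1.82 (SE 0.36), edgeR adjusted p = 0.215, DESeq2 5.19e-04). The highest level was in EIC 4. Gm15270 on the opposite strand covers 51.4% of Ctgf and had at most 0.120 CPM in any tumour.

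Angptl4, a secreted inhibitor of lipoprotein lipase that TGF-beta induces, had 126, 14.4, 23.5, 60.1 and 214 CPM in EIC 1 to 5 and 6.27, 18.2, 6.08, 11.4 and 17.5 CPM in 16IC 1 to 5, with EIC 2 inside the 16IC range (-2.88 (SE 0.72), -2.24 without EIC 5, edgeR adjusted p = 0.249, DESeq2 0.00188). Feedback targets were not alike. Pmepa1 at -0.18 (SE 0.44) and Smad7 at -0.20 (SE 0.23) lay within their SE of 0, while Skil had -0.64 (SE 0.27), edgeR adjusted p = 0.357.

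Of the genes of latency and activation, 12 of 15 were lower and 3 higher (median -0.44). Pcsk6, a proprotein convertase that cuts TGF-beta family precursors, had 71.2, 46.3, 58.1, 157 and 116 CPM in EIC 1 to 5 and 9.51, 32.8, 12.4, 7.34 and 29.5 CPM in 16IC 1 to 5, without overlap (-2.29 (SE 0.50), edgeR adjusted p = 0.249, DESeq2 8.78e-04). Ltbp1, which holds latent TGF-beta in the matrix, had 146 ± 111 in EIC against 60.7 ± 30.0 CPM in 16IC (-1.26 (SE 0.54), edgeR adjusted p = 0.362), with its highest level, 316 CPM, in EIC 3. Furin, the convertase most used for these precursors, lay at -0.26 (SE 0.34).

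Of 17 tested receptors and co-receptors 6 were higher and 11 lower (median -0.11). Bmpr2, the type II receptor of BMPs, had 146 ± 8.83 in EIC against 117 ± 13.1 CPM in 16IC without overlap (-0.32 (SE 0.11), edgeR adjusted p = 0.311). Acvr2a, a type II receptor of activins, had 32.5 ± 7.78 in EIC against 24.4 ± 4.22 CPM in 16IC (-0.41 (SE 0.20), edgeR adjusted p = 0.394). The activin type I receptor gene Acvr1b (0.20, SE 0.26), Tgfbr1 (0.01, SE 0.27) and Tgfbr2 (-0.11, SE 0.25) lay near 0. Among the SMADs and their regulators 3 of 16 were higher and 13 lower (median -0.19), with Smad4, the shared partner of the others, at 132 ± 36.4 in EIC against 103 ± 6.02 CPM in 16IC (-0.35 (SE 0.18), edgeR adjusted p = 0.417).

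Targets of SMAD1 and SMAD5 were divided, 5 higher and 6 lower of 11 (median -0.20). Id4, an inhibitor of basic helix-loop-helix factors, had 24.5, 0.356, 0.659, 22.9 and 1.20 CPM in EIC 1 to 5 and 0.576, 1.49, 0, 0.343 and 1.35 CPM in 16IC 1 to 5 (-3.70 (SE 1.33), -3.04 without EIC 1, edgeR adjusted p = 0.314). It was high in EIC 1 and EIC 4, the EIC tumours that were also high for Fst, and A330033J07Rik on the opposite strand covers 29.1% of it. Hey1, a target shared with Notch, had 180.3 ± 86.3 in EIC against 318 ± 104 CPM in 16IC (0.82 (SE 0.36), edgeR adjusted p = 0.367). Of the other extracellular antagonists 7 of 9 were lower (median -0.39), with the BMP antagonist Chrd at 1.49 ± 0.915 in EIC against 0.466 ± 0.442 CPM in 16IC (-1.65 (SE 0.83), edgeR adjusted p = 0.414) and Bmper at 4.07 ± 1.08 in EIC against 2.39 ± 1.10 CPM in 16IC (-0.77 (SE 0.38), edgeR adjusted p = 0.409). Of the other ligands 8 of 10 were lower (median -0.53), with Bmp2 at 2.32 ± 1.90 in EIC against 0.628 ± 0.398 CPM in 16IC (-1.87 (SE 0.70), edgeR adjusted p = 0.325) and Gdf11 at 2.62 ± 1.14 in EIC against 1.41 ± 0.722 CPM in 16IC (-0.89 (SE 0.47), edgeR adjusted p = 0.43).

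Genes of the stress responses known to induce Gdf15 were 4 higher and 7 lower of 11 (median -0.42). Cdkn1a, the cell cycle inhibitor p21 and a target of p53, had 99.1, 144, 514, 31.8 and 50.2 CPM in EIC 1 to 5 and 50.6, 31.9, 111, 20.8 and 25.1 CPM in 16IC 1 to 5 (-1.81 (SE 0.76), edgeR adjusted p = 0.36), with its highest level in EIC 3, the tumour highest for Gdf15, and a log2 difference of -0.77 without it. Mdm2, another p53 target, had 83.3 ± 23.1 in EIC against 62.1 ± 4.36 CPM in 16IC (-0.42 (SE 0.18), edgeR adjusted p = 0.36). Atf4 lay at 0.10 (SE 0.19) and Ddit3 at -0.83 (SE 0.44).

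**Figure D5:**
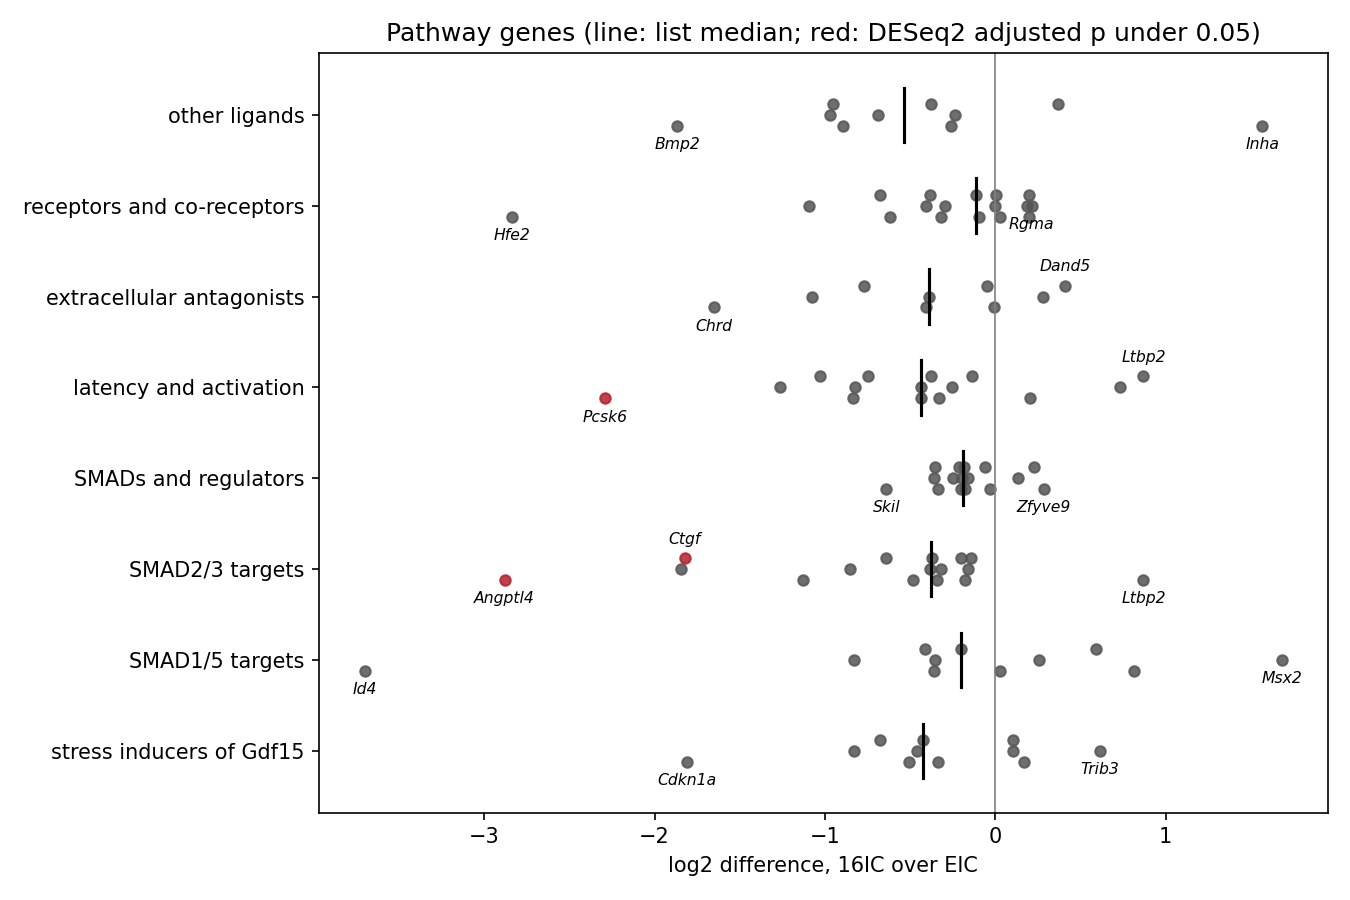
Log2 difference of 16IC over EIC for the tested genes of 8 pathway lists (points), with list medians (lines) and genes called by DESeq2 at an adjusted p under 0.05 in red. SMAD2/3 targets lie left of 0 for 15 of 16 genes, the median of the receptors is -0.11 and that of the SMADs -0.19, and a gene in several lists is drawn in each.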

How the data were processed

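Frozen tumours were extracted (Qiagen RNeasy) and made into NEBNext Ultra II libraries, per the labels' protocols. The submitters' processing notes name GRCm38 (mm10), Trimmomatic, STAR, HTSeq, edgeR and limma, and no source used here gives versions, annotation release or strand setting. The authors deposited 1 table with raw counts, with normalized counts (a signal equal to the counts over 1 factor per library), with FPKM, and with log2 fold changes and p-values of 16IC over EIC. The counts were tested, the deposited FPKM served for levels per length, and the normalized signal and deposited p-values served only as checks. No per-sample column was left out. The genotype label sets each tumour's group, and no label pairs tumours.

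Total counts ran from 14813940 to 16947400 per library. Genes were kept by filterByExpr (minimum count 10; 14915 genes, holding at least 99.6% of each library's counts), TMM-scaled and fitted on genotype alone by the robust quasi-likelihood test of edgeR 4.0.16 (R 4.3.3). Benjamini-Hochberg adjustment covered all genes, with a threshold of 0.05. SEs come from the F statistic. DESeq2 1.42.0, voom with quality weights (limma 3.58.1), other scalings and filters, and leaving out each tumour were alternatives. DESeq2 was first run with independent filtering tuned to 0.05 (354 calls of 17832 genes). After that count was seen it was changed to the default filtering (356 of 16838), whose adjusted p-values for the members are close to those in the deposited table, and 349 calls were shared. The smallest edgeR adjusted p over all genes was 0.0947. On simulated counts for 14915 genes of this comparison, edgeR recovered 16% of genes changed 2-fold and 60% of those changed 4-fold. The 4 motifs and the 3 promoters printed were chosen after the promoter of Inhba and the members' values had been seen. Relations of Inhba used log2 CPM (prior count 2) and exact permutation over 14400 arrangements within genotypes. Of the 26063 genes, 26029 identifiers are in GENCODE mouse release M21, from which overlaps were taken.

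The members and lists were chosen with earlier results of these data known. The genes named were the members, the 2 pathway genes per list with the smallest edgeR p and those DESeq2 called, and the 5 genes most like Inhba. Receptor, SMAD and target genes quoted near 0, Furin, Gfral, Atf4 and Ddit3 were added for their role after their values were seen. Of the pathway genes, 9 are not analysed here because no row of the table carried their symbol, and some other list genes are not reported here and enter no list count. Biological variation was 38.2% for Inhba and 33.6% for the median gene (coefficient of variation), so the spread between tumours sets the precision. The edgeR and DESeq2 p-values judge a genotype difference against that spread, and the permutation p-values judge a relation within genotypes.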

Additional observations from a re-analysis of the deposited data

Results flagged for a closer look

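Among the 20 gene and genotype groups of the members, 3 held a tumour that stood apart from the other 4. The rule asked for a gap in CPM above 0.71 of the group's range, which flags about 1 group in 20 when values are normal. That rate was not checked for CPM, which need not be normal, so nothing is read from the count of 3. Fst was 8.03 CPM in 16IC 2, and the next 16IC tumour had 2.23 CPM. Bmp4 was 7.25 CPM in EIC 3 and at most 1.69 CPM in the other EIC tumours. Gdf15 was 6.17 CPM in EIC 3 and at most 2.03 CPM in the other EIC tumours. The last 2 were in the same library, so they are not independent of each other.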

How the results depend on the processing

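No paired analysis was possible because the labels give each tumour its own animal and no number shared between genotypes. The count of genes called over all genes tested was 0 by edgeR, also with RLE scaling, total-count scaling, no filter, a filter of at least 1 CPM in 5 libraries and voom with quality weights, and 356 by DESeq2 (354 with its filtering tuned to 0.05, the setting run first). With 1 tumour left out it was 0 to 2 by edgeR (1 without EIC 1, 2 without EIC 2) while DESeq2, a combination chosen after seeing the data, gave 217, 839, 350, 203 and 286 without EIC 1 to 5 and 243, 549, 226, 178 and 579 without 16IC 1 to 5. Of the pathway genes, edgeR called 0 and DESeq2 3 with either filtering, and with 1 tumour left out 0 by edgeR and 3, 9, 4, 3 and 5 (EIC 1 to 5) or 5, 5, 4, 4 and 4 (16IC 1 to 5) by DESeq2. The cause of the gap between the tools was not tested. The log2 difference of Inhba was -2.12 to -2.02 under the other settings and -2.19 to -1.87 with 1 tumour left out. Of 169 log2 differences of members under alternatives, 168 moved by less than the spread between tumours. The exception was Bmp4 without EIC 3 (-0.59), and 7 changed sign, 3 of Inhbb and 4 of Bmp7. Leaving out 1 tumour or rescaling seldom moves a difference that far, so the count of 168 says little about stability. Within that limit Fstl3 went from -1.13 to -0.41 and Gdf15 from -1.91 to -1.12 without EIC 3. The number of relations of Inhba past adjustment was 0 with a prior count of 0.5 and 0 to 0 with 1 tumour left out, where the smallest adjusted exact permutation p was 0.244. Depth limits Gdf15, Fst, Bmp7 and Bmp4, which had down to 3, 7, 7 and 8 counts in a library.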

Other observations

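Several ligands of the family were barely detected in these tumours. Inhbe, Bmp5, Bmp8b, Bmp10, Gdf7, Gdf9 and Nodal stayed under 0.6 CPM in every tumour. Inha, whose product turns a beta subunit into inhibin, averaged 1.28 CPM over EIC tumours and 3.83 CPM over 16IC tumours, a log2 difference of 1.57 (SE 0.92, edgeR adjusted p = 0.474), and it was named after its values were seen. Mstn reached 1.56 CPM in EIC and 0.144 CPM in 16IC at most, with a median of 0.361 CPM in EIC. The BMP antagonists Chrdl2, Grem1 and Sostdc1 were below the filter on low counts and were not tested. Their maxima were 8.40, 5.62 and 2.32 CPM in EIC and 0.416, 0.762 and 0.0595 CPM in 16IC. The EIC medians were only 0.240, 0.250 and 0.241 CPM, so those maxima do not describe most EIC tumours.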
